A study of Homo sapiens with 12 samples.

Results

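The genes described here are 10 antioxidant and detoxification genes known as targets of the transcription factor NRF2: SLC7A11, GCLC, GCLM, TXNRD1, SRXN1, NQO1, HMOX1, AKR1C1, AKR1C3 and AKR1B10. They were chosen by symbol from the 28395 genes of the raw count table, and all 10 were among the 15853 genes that passed the expression filter. Their RNA was measured by poly(A) RNA-seq in HCT116, an established human colorectal cancer cell line, in 4 derivatives with 3 libraries each. HCT116 EV carried the empty vector, and HCT116 EHF was made by transfection with an EHF plasmid followed by isolation of geneticin-resistant clones. HCT116 CDX1 was made by retroviral transduction with CDX1 and selection of GFP-positive cells, and HCT116 EHF+CDX1 by transfecting HCT116 CDX1 cells with the EHF plasmid and selecting geneticin-resistant clones. EHF is an ETS-family factor of epithelial cells and CDX1 an intestinal homeobox factor. The study asked how re-expressing either factor, or both, changed the transcriptome of these cells. Effects of a factor, of clone selection and of the vector cannot be told apart in this design, and the study speaks of biological replicates in a number that differs from the 3 labelled libraries per line. Which libraries came from separate cultures is therefore not known, and p-values measure the spread between these libraries, which may in part be technical.

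NRF2, encoded by NFE2L2, is held at a low level by KEAP1, which presents it to a ubiquitin ligase for degradation. When oxidants or electrophiles modify KEAP1, NRF2 accumulates, pairs with a small MAF protein and binds the antioxidant response element in the promoters and enhancers of its targets. These targets supply glutathione, restore thioredoxin and peroxiredoxin, and detoxify quinones, haem and reactive carbonyls. BACH1 competes for the same element, prominently at HMOX1. Several of the genes answer other factors too: SLC7A11 is also a target of ATF4, the factor of the amino acid and integrated stress response.

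Total counts ran from 13523007 to 74186741 per library, so that 3 reads, the smallest count treated as signal, corresponded to between 0.0375 and 0.207 CPM (counts scaled to a common library size). EHF stood at 17110 to 19890 CPM in the EHF and EHF+CDX1 lines, at 236 to 335 CPM in EV and at 11.9 to 13.0 CPM in CDX1. CDX1 stood at 487 to 559 CPM in the CDX1 line and at 5108 to 5639 CPM in EHF+CDX1, so the line with both factors held more CDX1 RNA than the line with CDX1 alone. The summed level of 6 epithelial markers was 2544 to 3087 CPM in CDX1 and 4399 to 5599 CPM across the other lines. The 6 did not move together. KRT8, KRT18, KRT19 and CLDN7 had their lowest mean in CDX1, CDH1 in EHF and EPCAM in EV. EPCAM had its highest mean in CDX1, at 491 CPM against 265 in EV, 311 in EHF and 356 in EHF+CDX1. Of the markers of other cell types, 2 of 8 fibroblast genes, 4 of 7 immune genes and 1 of 4 endothelial genes passed the filter. The markers did not move as lists. PTPRC, CD3E, DCN, LUM and CDH5 had at most 6 reads in any library, whereas COL1A1 reached 10005 reads, CD68 3606 and CD14 174 in a CDX1 library, LYZ had 1110, 974 and 257 reads in EHF+CDX1 and at most 9 elsewhere, and PECAM1 had up to 33. The summed fibroblast markers reached 168 to 220 CPM in CDX1 against 34.5 to 76.7 CPM elsewhere. The summed immune markers reached 80.2 to 91.8 CPM in CDX1, 43.1 to 47.6 in EHF+CDX1, 16.7 to 18.6 in EHF and 3.50 to 15.1 in EV. These sums hide opposite changes. COL1A1 had a mean of 46.9 CPM in EV and 185.5 in CDX1, PDGFRB 1.26 and 0.603. Of the 4 immune genes tested, 2 were called higher and 2 lower in CDX1 against EV by the test described below. Without EV replicate 3 these were 2 and 1. The shares of all genes called were 21.3% and 23.3%, and 26.3% and 24.8% without that library. The part of these markers in the results was not tested. EV replicate 3 stood apart from the other EV libraries. The chi-square per degree of freedom between gene counts was 297 and 270 against EV replicates 1 and 2, compared with 4.11 between those 2 and 3.03 to 42.6 within the other lines. Its EHF level, 236 CPM against 335 and 326, and its single CDX1 read were close to those of the other EV libraries and unlike those of the modified lines; what set it apart was not tested. Counts in comparisons with EV are therefore also given without this library, and the plot of change over EV gives the value of each of the 10 genes without it. In bulk RNA, fewer cells expressing a gene and less RNA per cell cannot be told apart.

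The antioxidant response element was looked for as the letters TGACNNNGC, on both strands, in the 1000 bases before each gene start. RefSeq promoter entries (GRCh38.p14) matched 7 of the 10 genes, AKR1C3 and TXNRD1 with more than 1 start each; SLC7A11, HMOX1 and AKR1B10 were not matched. The letters occurred in 4 of the 7 genes, compared with 31.9% of all 35116 promoters, and in 2 of 7 within 250 bases of the start, compared with 10.9%. The stretches are shown because NRF2 is known to act through this element. They are written on the gene's strand, with the match in capitals, and lie 455 bases before the start of NQO1 (chr16:69726995-69727027), 34 before GCLM (chr1:93909444-93909476), 870 before GCLC (chr6:53545951-53545983), and 102 (chr12:104286918-104286950) and 99 (chr12:104215668-104215700) before the starts of TXNRD1.
NQO1: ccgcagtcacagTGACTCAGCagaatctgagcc
GCLM: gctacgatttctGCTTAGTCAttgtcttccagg
GCLC: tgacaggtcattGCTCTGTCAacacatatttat
TXNRD1, inner start: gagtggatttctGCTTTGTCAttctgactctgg
TXNRD1, outer start: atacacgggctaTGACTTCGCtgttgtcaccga
NQO1 and TXNRD1 at its outer start carried the letters in the forward direction, the others as the reverse complement. The longer form TGACTCAGC, which contains the AP-1 letters TGACTCA, was present in NQO1 alone of the 7, compared with 1.42% of all promoters. The AP-1 letters themselves occurred in 2 of the 7, NQO1 and SRXN1, against 13.6%. A CDX motif, TTTATG, occurred in 4 of the 7 against 37.6% of all promoters, and an ETS motif, CGGAAGT, in 0 of the 7 against 9.41%. A match is a description of the letters and not a binding site.

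Most of the 10 genes were more abundant in each modified line than in EV, but the lines fell into different patterns. HMOX1, SRXN1, TXNRD1 and GCLM were most abundant with CDX1 alone, and the line with both factors lay close to the line with EHF alone. The gap between CDX1 and EHF+CDX1 was called under every scaling tried for HMOX1 and SRXN1, but not with quantile normalisation for TXNRD1 and GCLM. NQO1 was high in both lines with the EHF plasmid and close to EV with CDX1 alone. The aldo-keto reductases, all of them rare transcripts, were most abundant in the line with both factors.

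**Figure D1:**
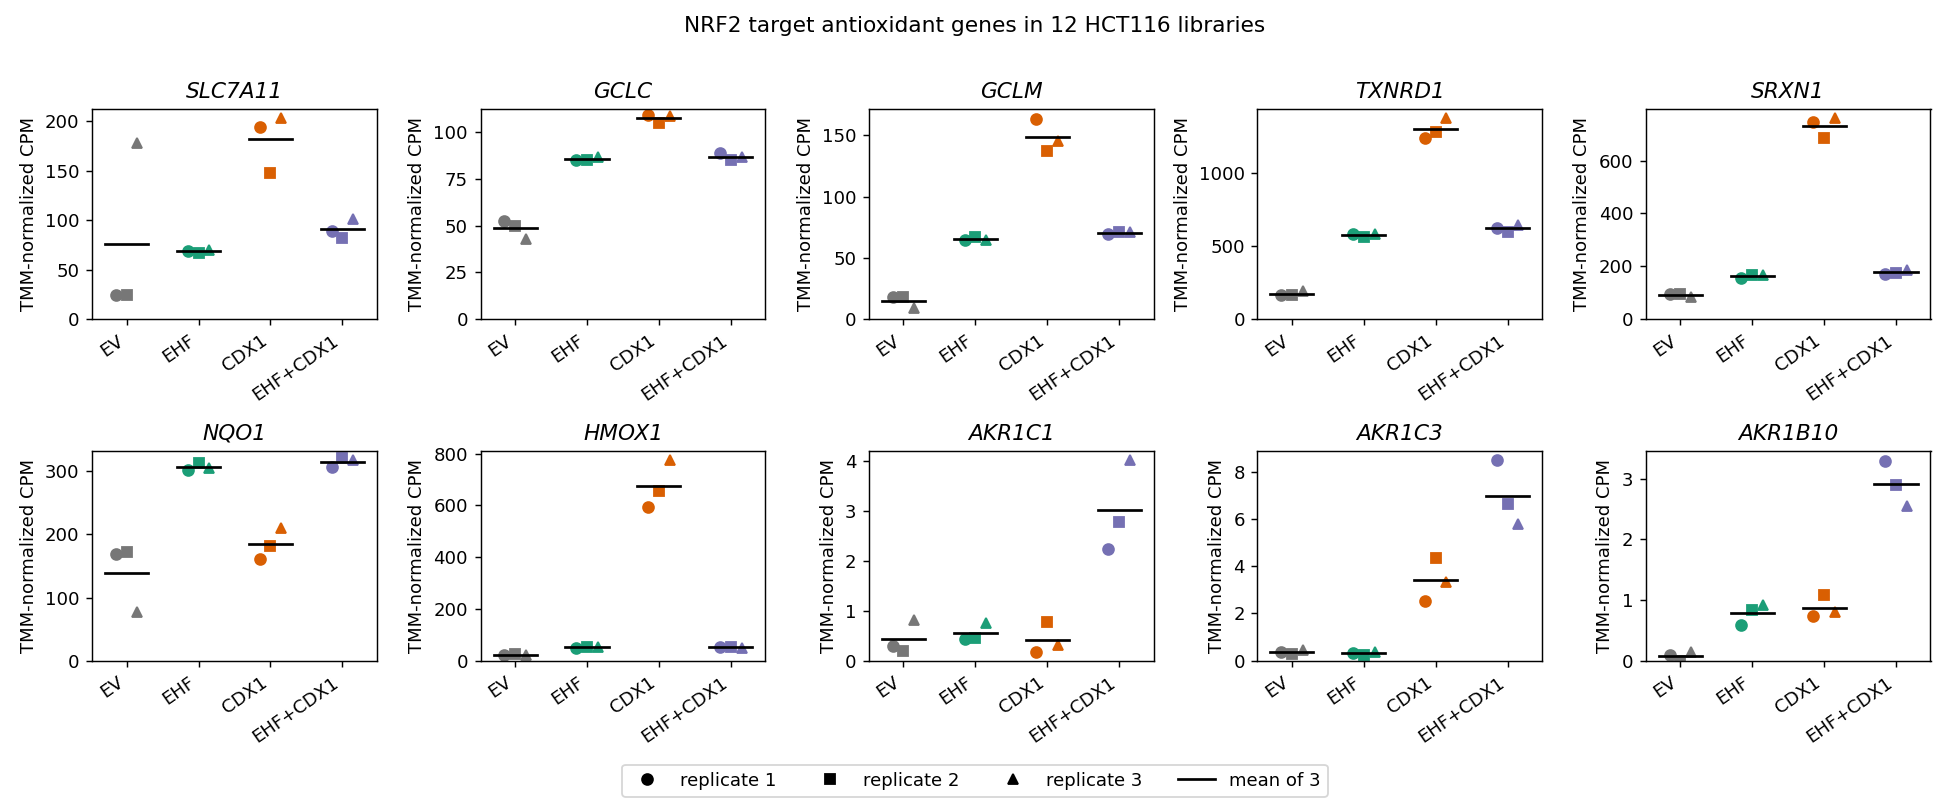
TMM-normalized CPM (linear axes from 0) of the 10 genes in each library of the 4 lines, with marker shape giving the replicate number and bars the mean of 3. HMOX1, SRXN1, TXNRD1 and GCLM peak in CDX1, NQO1 in the lines with EHF, the aldo-keto reductases in EHF+CDX1, and SLC7A11 is split within EV, where replicate 3 stood at 178 CPM.

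A gene was called higher or lower where edgeR's quasi-likelihood test against a 1.5-fold change gave an adjusted p below 0.05 over all 15853 genes. In EHF+CDX1 against EV, 9 of the 10 genes were called higher, compared with 7.3% of all genes tested called higher and 3.13% lower. Their median log2 fold change was 1.52, against −0.03 for all genes tested. In EHF against EV, 6 were called higher (background 5.68% higher, 2.65% lower), with a median of 0.99 against −0.04 for all genes. In CDX1 against EV, 7 were called higher (background 21.3% higher, 23.3% lower), with a median of 2.95 against −0.03. Without EV replicate 3 the counts were 10, 8 and 8, with backgrounds of 11.2%, 9.51% and 26.3% higher. These comparisons share the EV libraries, so their agreement is not independent.

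**Figure D2:**
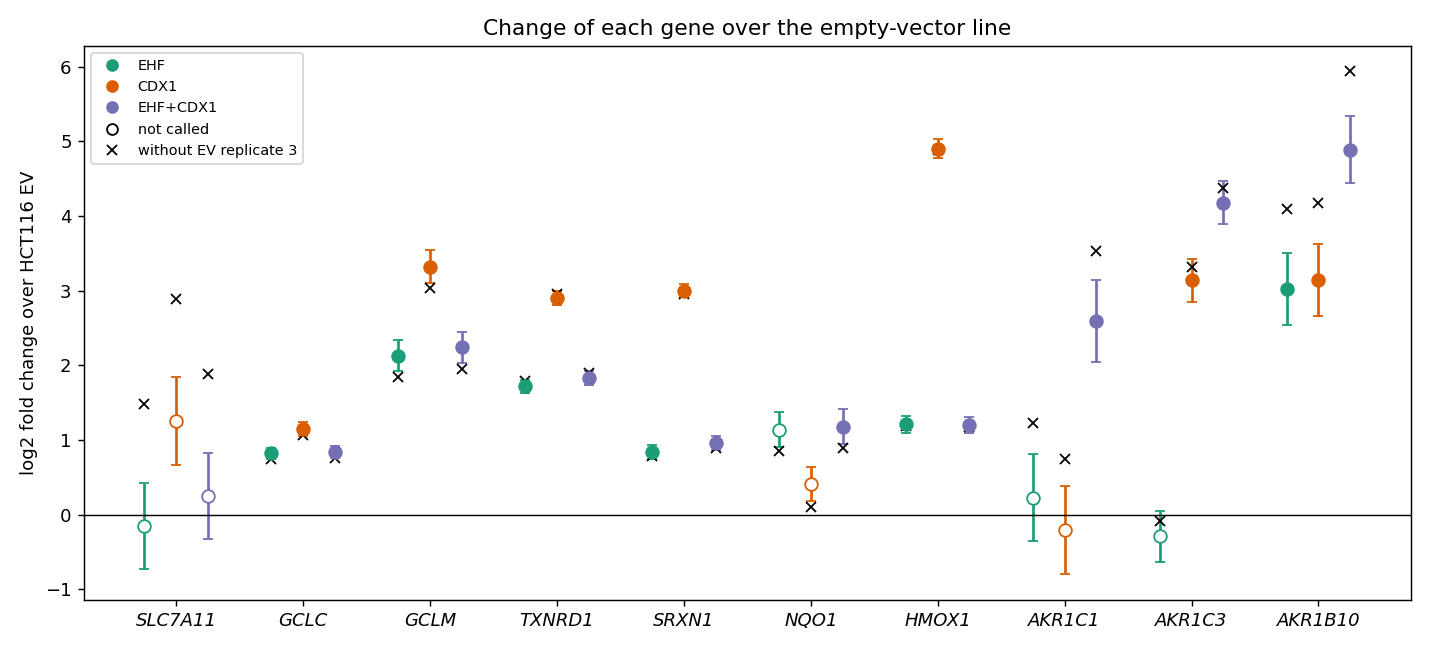
Log2 fold change of each gene over EV in the EHF, CDX1 and EHF+CDX1 lines (circles, edgeR estimate with its standard error, 3 libraries per line), filled where called against a 1.5-fold change. Crosses give the same value without EV replicate 3 and lie far from the circles for SLC7A11, AKR1C1 and AKR1B10, the last of which then had 2 EV reads in all.

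Glutathione supply was represented by SLC7A11, the cystine importer, and by GCLC and GCLM, the catalytic and modifier subunits of the ligase that makes the first bond of glutathione. SLC7A11 lies at chr4:138164097-138242349, GCLC at chr6:53497341-53545101 and GCLM at chr1:93885199-93909430 in GRCh38. GCLM stood at 18.1, 18.3 and 8.95 CPM in EV, at 64.9, 66.7 and 64.2 in EHF, at 164, 138 and 146 in CDX1, and at 69.5, 70.9 and 71.0 in EHF+CDX1. Every library of the modified lines was above every EV library, and CDX1 was above the rest. GCLM was 9.97-fold higher in CDX1 than in EV (log2 3.32 ± 0.22 SE, adjusted p = 2.94e-07), 4.37-fold higher in EHF (adjusted p = 0.000109) and 4.71-fold higher in EHF+CDX1 (adjusted p = 4.98e-05). GCLM was also lower in EHF+CDX1 than in CDX1, by 1.08 ± 0.20 on the log2 scale (adjusted p = 0.0113), although this call was lost with quantile normalisation (−0.74, adjusted p = 0.441) and with DESeq2.

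GCLC, the catalytic subunit, moved less. It stood at 52.6, 49.8 and 43.1 CPM in EV, 85.1, 85.0 and 87.0 in EHF, 109, 105 and 109 in CDX1, and 89.0, 84.8 and 86.9 in EHF+CDX1. EV was the lowest line and CDX1 the highest, with no overlap, while EHF and EHF+CDX1 overlapped. Log2 fold changes over EV were 0.82 ± 0.08 in EHF, 1.15 ± 0.09 in CDX1 and 0.84 ± 0.08 in EHF+CDX1, with adjusted p-values of 0.0256, 1.57e-05 and 0.0135. The call in EHF was lost in 6 of 15 alternatives, among them DESeq2 and each EHF library left out (adjusted p up to 0.102), and that in EHF+CDX1 in 2 of 15, 1 of them without EHF+CDX1 replicate 1 (adjusted p up to 0.0742).

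SLC7A11 could not be read without naming EV replicate 3. Its EV libraries stood at 24.6, 24.5 and 178 CPM, its EHF libraries at 68.8, 66.6 and 70.2, its CDX1 libraries at 194, 147 and 203, and its EHF+CDX1 libraries at 89.3, 81.9 and 101. The first 2 EV libraries lay below every other library, and EV replicate 3 lay within the range of CDX1. With all libraries SLC7A11 was not called in any comparison with EV: the log2 fold changes were −0.15 ± 0.58 in EHF, 1.25 ± 0.59 in CDX1 and 0.25 ± 0.58 in EHF+CDX1. Without EV replicate 3 they were 1.48, 2.89 and 1.88, with adjusted p-values of 1.54e-06, 1.68e-12 and 1.84e-08. The same library carried a summed level of 7246 CPM for 20 tested ATF4 response genes, against 3383 and 3430 CPM in EV replicates 1 and 2. Whether these 2 differences are connected was not tested.

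TXNRD1, the cytosolic thioredoxin reductase, and SRXN1, the sulfiredoxin that repairs over-oxidised peroxiredoxins, lie at chr12:104215779-104350307 and chr20:646615-653200. TXNRD1 stood at 169, 166 and 190 CPM in EV, 582, 565 and 587 in EHF, 1245, 1286 and 1380 in CDX1, and 624, 601 and 648 in EHF+CDX1. The 4 lines did not overlap, in the order EV, EHF, EHF+CDX1, CDX1, but the gap between EHF and EHF+CDX1 was small, 0.11 ± 0.09 on the log2 scale (adjusted p = 1). TXNRD1 was 3.30-fold higher than EV in EHF (adjusted p = 1.05e-06), 7.45-fold in CDX1 (adjusted p = 2.11e-09) and 3.57-fold in EHF+CDX1 (adjusted p = 4.06e-07). It was lower in EHF+CDX1 than in CDX1 by 1.06 ± 0.09 on the log2 scale (adjusted p = 0.000101), a call that was also lost with quantile normalisation (−0.41, adjusted p = 1). The gene EID3 lies within TXNRD1 and was counted at a mean of 2.90 CPM.

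SRXN1 was the clearer case of a gene high with CDX1 alone. Its libraries stood at 94.4, 94.7 and 84.3 CPM in EV, 156, 167 and 167 in EHF, 744, 685 and 761 in CDX1, and 171, 173 and 188 in EHF+CDX1. CDX1 lay far above the other lines, and EHF and EHF+CDX1 were next to each other. SRXN1 was 8.01-fold higher in CDX1 than in EV (adjusted p = 1.43e-09) and 1.80-fold and 1.95-fold higher in EHF and EHF+CDX1 (adjusted p = 0.0191 and 0.00183). The call in EHF was lost without EHF replicate 2 or 3 (adjusted p up to 0.0743). Between CDX1 and EHF+CDX1 it fell by 2.04 ± 0.09 on the log2 scale (adjusted p = 5.04e-08), and by 1.54 with quantile normalisation (adjusted p = 2.7e-06).

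NQO1, a quinone reductase, and HMOX1, the inducible haem oxygenase, lie at chr16:69709401-69726560 and chr22:35381096-35394207. HMOX1 stood at 20.9, 25.0 and 21.9 CPM in EV, 48.8, 52.5 and 54.8 in EHF, 595, 657 and 774 in CDX1, and 52.2, 54.2 and 49.1 in EHF+CDX1. The CDX1 libraries were all more than 10 times the level of any other library. HMOX1 was 29.9-fold higher in CDX1 than in EV (log2 4.90 ± 0.13, adjusted p = 3.83e-10), and 2.31-fold and 2.30-fold higher in EHF and EHF+CDX1 (adjusted p = 0.000438 and 0.000372). It was 13.0-fold lower in EHF+CDX1 than in CDX1 (adjusted p = 3.02e-09), and EHF+CDX1 and EHF differed by −0.01 ± 0.11 on the log2 scale.

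NQO1 had another pattern. It stood at 168, 172 and 77.6 CPM in EV, 302, 312 and 305 in EHF, 161, 182 and 210 in CDX1, and 307, 320 and 317 in EHF+CDX1. Both lines with the EHF plasmid lay above every EV and CDX1 library, while EV and CDX1 overlapped. The log2 fold change over EV was 1.18 ± 0.23 in EHF+CDX1 (adjusted p = 0.0329), 1.14 ± 0.23 in EHF (adjusted p = 0.0522, not called) and 0.41 ± 0.23 in CDX1 (adjusted p = 0.736). Without EV replicate 3, the lowest library, they were 0.89, 0.85 and 0.11, and the first 2 were called (adjusted p = 0.00111 and 0.00385). The call in EHF+CDX1 was lost in 7 of 15 alternatives, among them quantile normalisation (1.34, adjusted p = 0.0533), DESeq2 and each EHF+CDX1 library left out (adjusted p up to 0.166), and EHF gained one in 6 of 15. NQO1 is the promoter above with the longer element, and the gene with the highest level per length in EV: a geometric mean of 51.4 RPKM from the deposited log2 RPKM, against 39.0 for TXNRD1, 34.6 for SRXN1 and 14.0 for HMOX1. In CDX1, on the same scale, HMOX1 led with 325 RPKM, ahead of TXNRD1 at 212 and SRXN1 at 211, and NQO1 stood at 57.2.

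AKR1C1, AKR1C3 and AKR1B10 encode aldo-keto reductases, which reduce steroids, retinals and reactive aldehydes to alcohols. They lie at chr10:4963415-4983283, chr10:5048781-5107686 and chr7:134527567-134541412. All were rare in EV, with 4 to 44 reads per library for AKR1C1, 6 to 24 for AKR1C3 and 0 to 8 for AKR1B10, so their fold changes carry wide errors. AKR1C1 has close paralogs, and the longest protein-coding transcript of each gene was compared. Of the 150-base windows of the AKR1C1 transcript, the read length, 7.91% occur unchanged in AKR1C2, and 22.3% of 50-base windows do. That transcript is long, with 6394 windows of 150 bases against 1256 for AKR1C3. The share in a shorter AKR1C1 transcript was not measured and may be larger, so the split of reads between these genes is uncertain. For AKR1B10 and AKR1B15 the share was 11.3% at 50 bases and 0 at 150.

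AKR1C3 stood at 0.388, 0.284 and 0.441 CPM in EV, 0.319, 0.252 and 0.362 in EHF, 2.52, 4.37 and 3.35 in CDX1, and 8.49, 6.62 and 5.81 in EHF+CDX1. Both lines with CDX1 lay above both lines without it, and EHF+CDX1 above CDX1. AKR1C3 was higher than EV in CDX1 by a log2 fold change of 3.14 ± 0.29 (adjusted p = 5.08e-06) and in EHF+CDX1 by 4.18 ± 0.29 (adjusted p = 1.82e-06), and was higher in EHF+CDX1 than in CDX1 by 1.04 ± 0.23 (adjusted p = 0.0278). This last call was lost in 7 of 15 alternatives: with quantile normalisation (0.72, adjusted p = 0.535), log2 RPKM, DESeq2 or thinned counts, and without CDX1 replicate 1, CDX1 replicate 3 or EHF+CDX1 replicate 1 (adjusted p up to 0.773).

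AKR1B10 stood at 0.0861, 0 and 0.147 CPM in EV, 0.585, 0.840 and 0.912 in EHF, 0.745, 1.09 and 0.798 in CDX1, and 3.30, 2.90 and 2.56 in EHF+CDX1. EHF and CDX1 overlapped, EV lay below both and EHF+CDX1 above both. Over CDX1, where the counts are larger than in EV, EHF+CDX1 was higher by 1.75 ± 0.33 on the log2 scale (adjusted p = 0.00334), and over EHF by 1.87 ± 0.34 (adjusted p = 0.0223). The gain over EHF lost its call in 8 of 15 alternatives, among them each library of these lines left out (adjusted p up to 0.313). AKR1C1 stood at 0.302, 0.189 and 0.809 CPM in EV, 0.426, 0.462 and 0.750 in EHF, 0.175, 0.783 and 0.309 in CDX1, and 2.24, 2.77 and 4.01 in EHF+CDX1. The lines without both factors overlapped, and EHF+CDX1 lay above them. AKR1C1 was higher in EHF+CDX1 than in EV by 2.59 ± 0.55 (adjusted p = 0.0124; 3.53 without EV replicate 3) and than in CDX1 by 2.81 ± 0.55 (adjusted p = 0.00191). The gain over EHF, 2.36 ± 0.53, was not called (adjusted p = 0.0596), though it was in 7 of 15 alternatives. With AKR1C1, AKR1C2 and AKR1C3 counted as 1 gene, the sum was higher than EV by 3.58 in EHF+CDX1 (adjusted p = 1.7e-05) and by 1.87 in CDX1 (adjusted p = 0.00127).

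In the comparison of EHF+CDX1 with CDX1, genes of the list were called in both directions. The 3 aldo-keto reductases were called higher (background 22.3%) and GCLM, TXNRD1, SRXN1 and HMOX1 lower (background 18.7%), with a median of −0.65 against 0.04 for all genes. The share higher, 3 of 10, was near the background. The count higher was 2, without AKR1C3, with DESeq2, log2 RPKM or thinned counts, and the count lower was 2, HMOX1 and SRXN1, with quantile normalisation. Set against 18.7% in the main fit, 2 of 10 lower was near the background too. NQO1 was higher by 0.77 ± 0.23 on the log2 scale, every EHF+CDX1 library lying above every CDX1 library, but was not called (adjusted p = 0.166). It gained a call in 4 of 15 alternatives, among them quantile normalisation (1.19, adjusted p = 0.046), where AKR1C3 lost its own. In EHF+CDX1 against EHF, AKR1C3 and AKR1B10 were called higher, 2 of 10 genes, against a background of 2.49% higher and 0.189% lower. The count was 1, AKR1C3, when any library of these 2 lines was left out. The other 8 genes had adjusted p-values of 0.0596 or more, and the log2 differences of GCLC, GCLM, TXNRD1, SRXN1, NQO1 and HMOX1 between these lines ran from −0.01 to 0.12.

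The interaction asks whether the line with both factors differs from the sum of the separate log2 changes of EHF and CDX1. It was lower for 5 genes (background 18% lower) and higher for AKR1C1 (background 20.2% higher). The values were −1.13 ± 0.12 for GCLC, −3.21 ± 0.29 for GCLM, −2.79 ± 0.13 for TXNRD1, −2.89 ± 0.13 for SRXN1, −4.91 ± 0.17 for HMOX1 and 2.58 ± 0.79 for AKR1C1, on the log2 scale. For NQO1 the interaction was −0.37 ± 0.32 (adjusted p = 0.726). Without EV replicate 3 it was lower for 7 genes, SLC7A11 (−2.49, adjusted p = 8.06e-10) and AKR1B10 being added. AKR1C1 was then no longer called (1.57, adjusted p = 0.191). The backgrounds rose as well without this library, to 24.4% lower and 23.3% higher. The AKR1C1 call was lost in 8 of 20 alternatives in all. CDX1 RNA was not equal in the 2 lines that carry it, so the sum of single effects is set at another CDX1 level than the line with both. EHF RNA was not equal in the 2 lines without the EHF plasmid, at 236 to 335 CPM in EV and 11.9 to 13.0 CPM in CDX1. The change in CDX1 against EV, and with it the interaction, therefore also includes a lower EHF level.

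**Figure D3:**
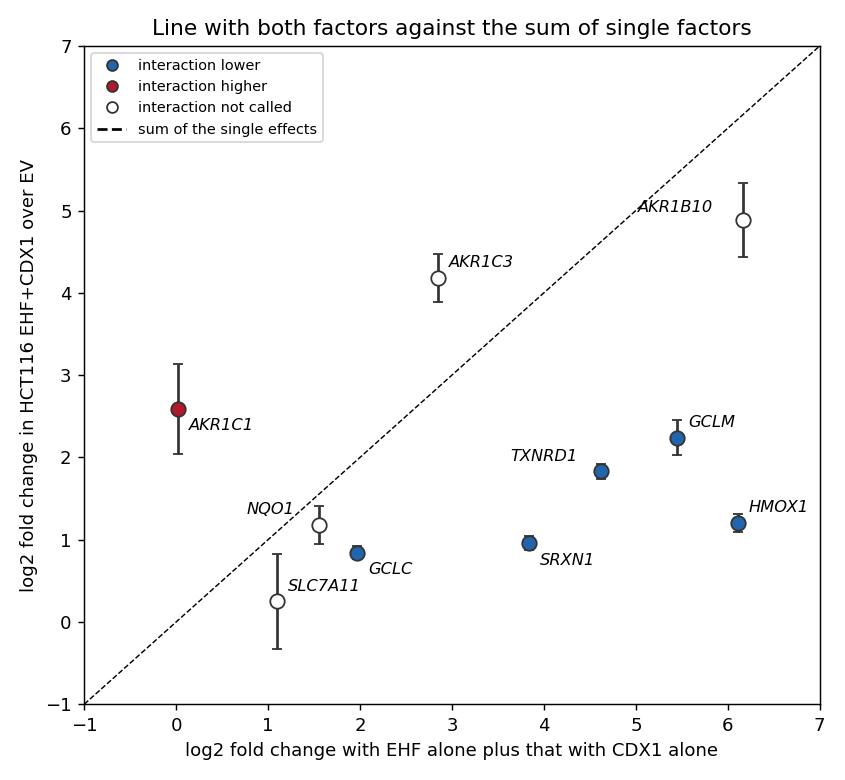
Log2 fold change over EV in EHF+CDX1 (y axis, edgeR estimate with its standard error) against the sum of the log2 fold changes with EHF alone and CDX1 alone (x axis) for the 10 genes; the dashed line marks equality and colour marks the interaction call. HMOX1, GCLM, TXNRD1 and SRXN1 lie far below the line and AKR1C1 above it.

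Among 16 regulators of the pathway, 8 were called higher and 3 lower in CDX1 against EV, against backgrounds of 21.3% and 23.3%, and 3 were called higher in EHF+CDX1 against EV, where the background was 7.3%. These counts were 8, 2 and 5 without EV replicate 3, against backgrounds of 26.3%, 24.8% and 11.2%. NFE2L2 itself stood at 91.8, 97.4 and 86.0 CPM in EV, 119, 122 and 120 in EHF, 178, 170 and 183 in CDX1, and 119, 119 and 121 in EHF+CDX1. CDX1 was the highest line and EV the lowest. NFE2L2 was called higher in CDX1 (log2 0.95 ± 0.08, adjusted p = 0.00019), and its log2 fold change of 0.39 ± 0.08 in each line with EHF was not called. KEAP1, whose mean levels were 99.2, 73.8, 118 and 93.8 CPM in EV, EHF, CDX1 and EHF+CDX1, was not called in any line against EV. SQSTM1, an autophagy receptor that binds KEAP1, rose from a mean of 265 CPM in EV to 1790 in CDX1 (log2 2.76 ± 0.13, adjusted p = 1.99e-08) and 480 in EHF+CDX1 (log2 0.86 ± 0.12, adjusted p = 0.0468). The BACH2 repressor gene had means of 1.15, 7.64, 21.5 and 5.02 CPM, higher than EV in every modified line, and NFE2L3, an NRF2 relative, was higher in EHF+CDX1 (log2 0.90 ± 0.10, adjusted p = 0.00927) and lower in CDX1 (log2 −0.75 ± 0.10, adjusted p = 0.0357). Chosen after their values were seen, the small MAF genes MAFF, MAFG and MAFK and the repressor gene BACH1 were also higher in CDX1, by 4.55, 1.97, 1.88 and 1.76 on the log2 scale. Other regulators differed in direction. CUL3 had a mean of 90.6 CPM in EV and 234.5 in CDX1, whereas DPP3 went from 59.2 to 25.5 and PALB2 from 25.3 to 8.69. MAFF overlaps TMEM184B (143 CPM), SQSTM1 overlaps MGAT4B (151 CPM) and MRNIP, MAFK overlaps TMEM184A (49.7 CPM) and MAFG overlaps MILIP (11.4 CPM), and no source used here states whether counting used the strand.

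Of 38 other NRF2 targets tested, 12 were called higher and 5 lower in CDX1 against EV, with a median of 0.35, against backgrounds of 21.3% and 23.3%. In EHF+CDX1, 6 were called higher and 1 lower, with a median of 0.15, against 7.3% and 3.13%. Leaving out EV replicate 3 gave 14 and 6 in CDX1 (background 26.3% and 24.8%) and 9 and 2 in EHF+CDX1 (background 11.2% and 4.28%). In CDX1 the largest were OSGIN1 (log2 3.69 ± 0.17), ABHD4 (3.51 ± 0.16) and FTL, the ferritin light chain (3.33 ± 0.25). FTL went from 1235, 1262 and 558 CPM in EV to 10610, 9911 and 10160 in CDX1, and stood at 1292, 1235 and 1363 in EHF+CDX1. The CDX1 libraries lay far above the others, which is the order also seen for HMOX1, whose product releases iron from haem. FTL was named for its large rise in CDX1 against EV, so a high level there is part of the choice. The transporter genes ABCC4 and ABCC2 and IDH1 were the most reduced in CDX1, by 1.80, 1.35 and 1.20 on the log2 scale. In EHF+CDX1 GPX2, the gastrointestinal glutathione peroxidase, stood at 74.5, 68.4 and 77.3 CPM, while no library of the other 3 lines exceeded 0.262 CPM. CBR1, a carbonyl reductase, had 365, 371 and 90 reads in EHF+CDX1 and at most 3 in any other library. ALDH3A1, an aldehyde dehydrogenase, was higher by 4.86 ± 0.39. GPX2, CBR1 and ALDH3A1 had their highest level in the same line as the aldo-keto reductases. They were named for their large rise in that line against EV, so a high level there is part of the choice. Of the 38, 31 were not called in EHF+CDX1 against EV.

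Of 9 tested aldo-keto reductase genes, 5 were called higher in EHF+CDX1 against EV, and 2 were called higher and 2 lower in CDX1, the same counts as without EV replicate 3. The 9 include AKR1C1, AKR1C3 and AKR1B10, described above, so these counts are not separate from the earlier ones. With all libraries, these genes were called higher in EHF+CDX1, and the others called there were AKR1C2 and AKR7A3. The 2 called higher in CDX1 were AKR1C3 and AKR1B10. AKR1C2 was also counted among the other NRF2 targets. The backgrounds were 7.3% in EHF+CDX1 and 21.3% higher and 23.3% lower in CDX1, so the CDX1 shares were near the background. AKR1C2, the paralog of AKR1C1, was higher in EHF+CDX1 by 3.64 ± 0.42 (adjusted p = 0.000126), at 3.98, 5.14 and 4.08 CPM against at most 0.682 CPM elsewhere. AKR7A2 and AKR1E2 were lower in CDX1, by 1.24 and 1.02. Of 25 antioxidant enzymes that are on neither NRF2 list, 4 were called higher and 4 lower in CDX1, with a median of 0.04, and 5 were called higher in EHF+CDX1, with a median of −0.14. Both CDX1 shares were below the backgrounds of 21.3% and 23.3%, and the background in EHF+CDX1 was 7.3%. With EV replicate 3 left out the counts were 5 and 6 in CDX1 and 4 higher and 2 lower in EHF+CDX1. The backgrounds were then 26.3% and 24.8% in CDX1 and 11.2% and 4.28% in EHF+CDX1. In CDX1, GPX8, SOD1 and GPX3 were higher by 1.40, 1.33 and 1.26, and IDH2, MSRB1 and CAT, the catalase gene, were lower by 2.05, 1.83 and 1.77. NNT, the mitochondrial transhydrogenase that makes NADPH, had 292, 280 and 57 reads in EHF+CDX1 and 1 read in all the other libraries together. SOD3 was at 1.59, 2.14 and 2.07 CPM in EHF+CDX1 and at 0.1 CPM or less elsewhere, and GGT1 was higher by 2.39 ± 0.23.

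Of 20 ATF4 response genes tested, 12 were called higher and 2 lower in CDX1 against EV, with a median of 1.29, against backgrounds of 21.3% and 23.3%. Without EV replicate 3 the count higher was 16, against 26.3%. In EHF+CDX1 against EV, 2 were called higher and 1 lower, against 7.3% and 3.13%, but 10 were higher without EV replicate 3, against 11.2%. With all EV libraries, ATF3, VLDLR and NUPR1 were the most raised in CDX1, by 4.45, 3.84 and 3.62 on the log2 scale. VLDLR had only 1, 1 and 5 reads in EV and NUPR1 1, 2 and 6. The order depends on EV replicate 3: DDIT3 stood at 5.86, 5.63 and 52.8 CPM in EV and at 142, 154 and 165 in CDX1. CTH, which makes cysteine from cystathionine, was lower in each modified line: it stood at 138, 134 and 96.2 CPM in EV, 16.9, 15.4 and 15.6 in EHF, 16.9, 15.4 and 13.2 in CDX1, and 13.3, 12.2 and 14.4 in EHF+CDX1. Its log2 fold changes over EV were −2.95 ± 0.15 in EHF, −3.01 ± 0.15 in CDX1 and −3.21 ± 0.15 in EHF+CDX1. CTH RNA thus exceeded that of the modified lines in every EV library, whereas SLC7A11 RNA was below them in EV replicates 1 and 2.

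The genes with the most similar profile over the 12 libraries, by Pearson's r of log2 CPM among 12448 genes, were SRXN1 and HMOX1 for each other (r = 0.994). MAFK and PEA15 reached the same rounded value for SRXN1, and TICAM1 and SFN for HMOX1. The match is not particular to this pair, since 1483 genes had r above 0.9 with SRXN1 and 1580 with HMOX1. The other leading matches were MAP7 for GCLM (0.994), TAF4B and GCLM for GCLC (0.993 each), MARCKS for TXNRD1 (0.991) and CDX1 for AKR1C3 (0.991). They were AXL for SLC7A11 (0.99), ARPC5 for NQO1 (0.982), SAMD5 for AKR1B10 (0.969) and DTX3L for AKR1C1 (0.953). These values describe 12 points that fall into 4 lines.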

How the data were processed

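The deposited table holds raw counts per gene: the authors mapped reads with Subread to GRCh38/hg38, retained those with a unique position and counted them over RefSeq exons with featureCounts (both 2.0.0 in the submitters' processing notes). A deposited log2 RPKM file per library was derived by the authors from quantile-normalised log2 counts and exon length, and the RPKM given here are on that scale. Whether counting used the strand is not given in the sources used here. Genes with at least 0.5 CPM in at least 3 libraries were kept. All 12 libraries entered 1 edgeR 4.0.16 quasi-likelihood fit (R 4.3.3) with TMM normalisation and tests against a 1.5-fold change, Benjamini-Hochberg adjusted over all genes tested. A prior count of 2 was used only for log2 CPM values, as in the correlations. Fold changes came from the fit with edgeR's default prior count. CPM values are TMM-normalised and errors are SE. The TMM factors were 0.7995 to 0.8449 in CDX1 and 0.973 to 1.095 in the other lines. Scripts were tested on simulated data. Alternatives used limma 3.58.1 and DESeq2 1.42.0, other scalings and filters, thinned counts, a replicate block and each library left out. The genes, lists and tests were chosen with earlier results of these data known. Named genes were all 10 targets, NFE2L2, KEAP1, the regulators called in EHF+CDX1 against EV, up to 3 called genes per direction with the largest change in each other list in EHF+CDX1 and CDX1 against EV, and each target's most correlated gene. Promoter windows came from hg38, matched to RefSeq entries.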

Additional observations from a re-analysis of the deposited data

Results flagged for a closer look

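For 6 of the 10 genes the change with the EHF plasmid differed between lines without and with CDX1, tested as the interaction in the edgeR fit. Effects of clone selection and of the vector cannot be told apart from those of the factors. CDX1 RNA also differed, at 487 to 559 CPM in CDX1 and 5108 to 5639 CPM in EHF+CDX1. EHF RNA differed between the lines without the EHF plasmid, at 236 to 335 CPM in EV and 11.9 to 13.0 CPM in CDX1. The interaction includes both differences. The interaction was called lower for 5 genes (background 18%) and higher for 1 of 10, below its background of 20.2%. On the log2 scale it was −1.13 for GCLC (adjusted p = 0.000431), −3.21 for GCLM (adjusted p = 8.57e-06), −2.79 for TXNRD1 (adjusted p = 6.06e-08), −2.89 for SRXN1 (adjusted p = 4.69e-08) and −4.91 for HMOX1 (adjusted p = 4.59e-09). For AKR1C1 it was 2.58 (adjusted p = 0.0295), and 1.57 (adjusted p = 0.191) without EV replicate 3, and lost its call in 8 of 20 alternatives. For HMOX1 the EHF line exceeded EV by 1.21 on the log2 scale, while EHF+CDX1 fell by 3.70 against CDX1.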

How the results depend on the processing

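Over single genes and alternatives, 858 values kept their direction and side of the threshold, 46 lost the call, 28 gained it and 16 changed sign; the causes were not tested. The count lower in EHF+CDX1 against CDX1 was 2 instead of 4 with limma voom and quantile normalisation and 2 with the deposited log2 RPKM. The count higher in EHF+CDX1 against EHF was 1 with any EHF or EHF+CDX1 library left out (the EV and CDX1 libraries were not left out for this comparison). The count with a higher interaction was 2 when tested against no change, 2 with log2 RPKM, 0 with DESeq2, 0 with counts thinned to the smallest library, and 0 to 2 with a library left out. SLC7A11 ran from −0.17 to 1.88 in EHF+CDX1 against EV and from −0.57 to 1.48 in EHF against EV with a library left out, and was 0.44 with voom, 0.61 with log2 RPKM and 0.26 with the replicate block in the latter. AKR1C1 ran from −0.10 to 1.23 in EHF against EV (−0.06 with its paralogs summed) and from −0.99 to 0.74 in CDX1 against EV (0.23 thinned, 1.87 with its paralogs summed). In EHF+CDX1 against EHF, thinning gave 0.00 for GCLC and 0.02 for HMOX1, and HMOX1 ran from −0.05 to 0.03. The labels link libraries across lines only by a replicate number. Of 18 same-numbered pairs, 0 had deviations correlated above 0.1 (−0.065 to 0.08), and 6 of 12 libraries were closest to their own number. With 3 libraries per line, this check cannot settle whether same-numbered libraries were handled together. The replicate block left the counts of these genes at 9, 6 and 7 higher against EV; in EHF+CDX1 against EHF the count stayed at 2, but AKR1B10 lost its call (1.90, adjusted p = 0.0587) and AKR1C1 gained one (2.49, adjusted p = 0.0397). Depth limits the aldo-keto reductases most, with 0 to 44 reads per library in EV.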
